A study of Rattus norvegicus with 4 samples.

Results

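The cells described here are the few cells of the rat anterior pituitary gland that carried transcripts of fibrillar collagens and their partner proteoglycans, labelled pericytes and collagen-producing mesenchymal cells. They were chosen by counts of unique molecular identifiers (UMIs, the tags that count captured transcripts). A cell was taken when at least 3 of the 4 genes *Col1a1*, *Col3a1*, *Dcn* and *Lum* were detected in it with at least 6 UMIs together, and when *Gh1* stayed under 5%, *Prl* and *Pomc* under 2% and *Cga* under 1% of its UMIs. By this rule 52 of 7861 cells (0.661%) were chosen. Dispersed anterior pituitary cells of Sprague Dawley rats had been profiled by single-cell RNA sequencing (10X Genomics), and the labels name no treatment or genetic change. The female group was 1 pool of 4 glands from diestrus rats 44 days old, and the male group was 1 pool of 4 glands from rats 59 days old. Each pool was loaded on 2 lanes, so the lanes are technical replicates, every p-value measures the spread between lanes and not between animals, and sex cannot be told apart from pool and age.

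The lanes, told apart by the suffix of the cell barcode, were given a sex by the study's number of cells per lane, which the number of barcodes of each suffix equals; the labels themselves do not tie a suffix to a sample. The deposited counts summed to 18955509 UMIs in 1868 cells and 20312999 UMIs in 1861 cells for the female lanes, and 23425817 UMIs in 2047 cells and 24048021 UMIs in 2085 cells for the male lanes. Of these, 12 and 8 cells in the female lanes and 19 and 13 cells in the male lanes met the rule. The collagen-producing cells held 376242 UMIs together, 91902 and 46225 in the female lanes and 144890 and 93225 in the male lanes. The median cell had 6736 UMIs (lowest 3206, highest 16679) and 2442 genes, and none exceeded 2 times the median UMIs of its lane. Values per lane are given below in this order, the female lane with 1868 cells, the female lane with 1861 cells, the male lane with 2047 cells and the male lane with 2085 cells. Levels are CPM, UMIs of a gene scaled to 1000000 UMIs, over the summed UMIs of the cells named. The chemistry tags the 3′ end of a transcript, so a CPM value does not grow with transcript length and levels of different genes were set side by side on that scale.

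As background, pericytes are contractile cells that sit within the basement membrane of capillaries, and they respond to PDGF-B from the endothelium through the receptor *Pdgfrb*. Fibroblasts lie outside the vessels, carry *Pdgfra* and lay down the fibrillar collagens, the small proteoglycans that space the fibrils, and the enzymes that trim and crosslink them. In the anterior pituitary gland such cells surround a dense bed of fenestrated capillaries, through which hypothalamic hormones arrive and pituitary hormones leave.

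Genes whose counts lay almost wholly in these 52 cells were found without a test, as the share of all UMIs of a gene in the file. For *Foxc2* and *Foxd1*, forkhead transcription factors of mesenchyme, the share was 100% (32 UMIs in 21 cells and 31 UMIs in 20 cells). Among more abundant genes it was 96.2% for *C7*, a complement component (450 of 468 UMIs), 93.6% for *Inmt*, an indolethylamine methyltransferase (557 of 595), 92.9% for *Tcf21*, a basic helix-loop-helix factor of mesenchyme (171 of 184), and 90.0% for *Igfbp6*, a binding protein that prefers IGF-II (279 of 310). The 25 genes with the largest shares also held *Tfap2b*, *Prdm8* and *Foxf2* among transcription factors, *Pdgfra* (88.6%), *Pdgfrb* (67.8%), *Il13ra2*, *S1pr3*, *Trpa1* and *Gpr81* among receptors and channels, and *Ccl11*, *Megf6*, *Cldn11*, *Vtn*, *Crabp1*, *Aox3* and *Mmp23*. Their smallest share was 63.8%, in the uncharacterized LOC103692362, and LOC102550137 had 88.5%.

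Promoters were looked up for these 25 genes in RefSeq (assembly GRCr8, later than the Rnor6 reference behind the counts), as 250 bases before and 50 bases after the start, and 14 genes matched. CAGCTG, a palindromic E-box of the kind that basic helix-loop-helix factors recognise, was searched because *Tcf21* is such a factor. It was found in 3 of 14 promoters, beside 15.1% of 33469 rat promoters of this length. TATAAA, on either strand, was found in 1 of 14, beside 14.2%, and CCAAT, on either strand, in 6 of 14, beside 37.5%. The promoters with CAGCTG are printed 5′ to 3′ in the direction of the gene, with CAGCTG and TATAAA in capitals. *Igfbp6* lies on the plus strand at chr7:135154669-135154968, *Vtn* on the plus strand at chr10:63892532-63892831 and *Inmt* on the minus strand at chr4:85652706-85653005. A match is a description of the letters only.
Igfbp6: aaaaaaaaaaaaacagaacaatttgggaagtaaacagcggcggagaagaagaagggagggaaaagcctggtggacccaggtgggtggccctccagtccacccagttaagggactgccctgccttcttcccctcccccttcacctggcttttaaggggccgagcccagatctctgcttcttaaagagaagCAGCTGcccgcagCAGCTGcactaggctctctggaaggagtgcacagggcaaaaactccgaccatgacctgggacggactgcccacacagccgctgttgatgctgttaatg
Vtn: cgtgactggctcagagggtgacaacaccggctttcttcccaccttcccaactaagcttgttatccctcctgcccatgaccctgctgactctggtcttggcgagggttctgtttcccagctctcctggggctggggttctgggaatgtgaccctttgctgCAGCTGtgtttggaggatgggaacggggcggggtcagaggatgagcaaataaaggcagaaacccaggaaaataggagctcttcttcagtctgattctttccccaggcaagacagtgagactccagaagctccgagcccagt
Inmt: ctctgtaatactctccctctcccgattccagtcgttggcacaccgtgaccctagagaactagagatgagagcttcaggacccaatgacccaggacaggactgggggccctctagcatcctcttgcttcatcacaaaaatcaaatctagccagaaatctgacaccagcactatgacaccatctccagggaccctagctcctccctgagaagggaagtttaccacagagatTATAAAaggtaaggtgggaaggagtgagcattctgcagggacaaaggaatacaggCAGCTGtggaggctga
In the *Igfbp6* promoter the letters occur at 61 and at 48 bases before the start. They occur 91 bases before it in *Vtn* and 34 bases after it in *Inmt*, whose TATAAA lies 21 bases before the start.

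The 4 genes of the rule are given as a description, since they chose the cells. *Dcn*, a collagen-binding proteoglycan, was at 8183 and 5322 CPM in the female lanes and 5211 and 9482 in the male lanes. *Col3a1* was at 3841, 6057, 3347 and 3014 CPM, *Col1a1* at 2426, 4759, 3472 and 3475, and *Lum*, lumican, at 3798, 2704, 1926 and 4044. The cells stood well inside the rule, with 18 to 357 UMIs in the 4 genes (median 108.5) and all 4 genes in 51 of 52 cells. Just outside it, 1 cell had at least 3 of the genes with fewer than 6 UMIs, and 4 cells had *Col1a1* and *Col3a1* but neither *Dcn* nor *Lum*; these 4 all had *S100b*, a folliculostellate gene, 1 had *Rgs5*, 1 had *Pdgfrb*, and none had *Pdgfra*, *Tcf21* or *C7*.

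The label was then checked against markers of pericytes and of fibroblasts. Single markers of both types were found in part of the cells. Of fibroblast markers, *Tcf21* was found in 39 cells and *Pdgfra* in 32, with others given below in fewer. Of genes used to define pericytes, *Pdgfrb* was found in 37 cells, *Rgs5* in 15 and *Higd1b* in 3. Of a list of 20 fibroblast markers, the median cell had 9 (lowest 5, highest 16), where endothelial and folliculostellate cells had a median of 1. Of a list of 20 mural markers, which holds several contractile and vascular genes of other cells too, the median was 5 (0 to 14), with 1.5 in endothelial and 2 in folliculostellate cells. On shorter lists of defining genes, 14 cells had at least 3 of 9 mural markers and 11 had none, while 9 had at least 3 of 7 fibroblast markers and 5 had none. More fibroblast than mural defining markers were detected in 20 cells, as many in 18, and fewer in 14. *Tcf21*, *Pdgfra* or *C7* was detected in 50 of 52 cells. These 3 genes were among the 25 with the largest share of UMIs in these cells, and *C7* is on neither marker list. The count is therefore a description and does not bear on the label.

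The PDGF receptors, which divide the lineages in many tissues, did not divide these cells into separate classes. *Pdgfra* and *Pdgfrb* were found together in 22 cells, *Pdgfra* alone in 10, *Pdgfrb* alone in 15 and neither in 5. *Pdgfra* was at 109 and 43.3 CPM in the female and 207 and 300.3 CPM in the male lanes, and *Pdgfrb* at 316, 714, 366 and 279. At a common depth of 2000 UMIs per cell, *Pdgfra* was detected in 28.2% of the collagen-producing cells and in 0.0446% of folliculostellate cells (61.5% and 0.171% at full depth, with medians of 6736 and 7075 UMIs). *Pdgfrb* was detected in 46.3% at that depth, and in 1.18% of endothelial cells (71.2% and 2.35% at full depth, the latter with a median of 7985 UMIs).

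*Rgs5*, a regulator of G-protein signalling used as a pericyte marker, was confined to few cells. It had 130 UMIs in 15 cells, and 5 cells held 112 of them, with 30, 27, 26, 18 and 11 UMIs each, where the next cell had 3. These 5 cells came from the female lanes (2 and 1 cells) and from the male lane with 2047 cells (2 cells). They also held 44 of the 74 UMIs of *Vtn*, vitronectin, 38 of the 49 UMIs of *Cox4i2* and 30 of the 62 UMIs of *Ndufa4l2*, both mitochondrial genes known from brain pericytes, and 10 of the 12 UMIs of *Higd1b*. *C7* was detected in all 5, but *Pdgfra* had 1 UMI, *Igfbp6* had 3, and *Il13ra2* and *Cilp*, a matrix protein of cartilage and fibrous tissue, had none. The 5 cells were picked by *Rgs5*, so these values are a description.

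Of genes used by vascular smooth muscle, *Tagln* was at 792 CPM (298 UMIs in 26 cells) and *Tpm2* at 289.7 CPM, whereas the more restricted ones were near or at 0. *Acta2*, smooth muscle actin, had 8 UMIs in 3 cells, all in the female lane with 1861 cells, and *Myh11* and *Cnn1* had none in any cell, a count that allows up to 7.97 CPM. Of the whole file, 20 cells had at least 3 of the 7 mural genes *Rgs5*, *Pdgfrb*, *Cspg4*, *Kcnj8*, *Abcc9*, *Notch3* and *Higd1b*. Of these, 13 were among the collagen-producing cells and the other 7 met the endothelial rule, with 132 UMIs of *Rgs5*, at most 5 UMIs in the 4 rule genes, and no UMI of *Pdgfra* or *Tcf21*. Markers of both types were thus found, with 363 UMIs in the 9 mural and 223 UMIs in the 7 fibroblast defining genes, and the cells are called collagen-producing cells here, after their rule.

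**Figure D1:**
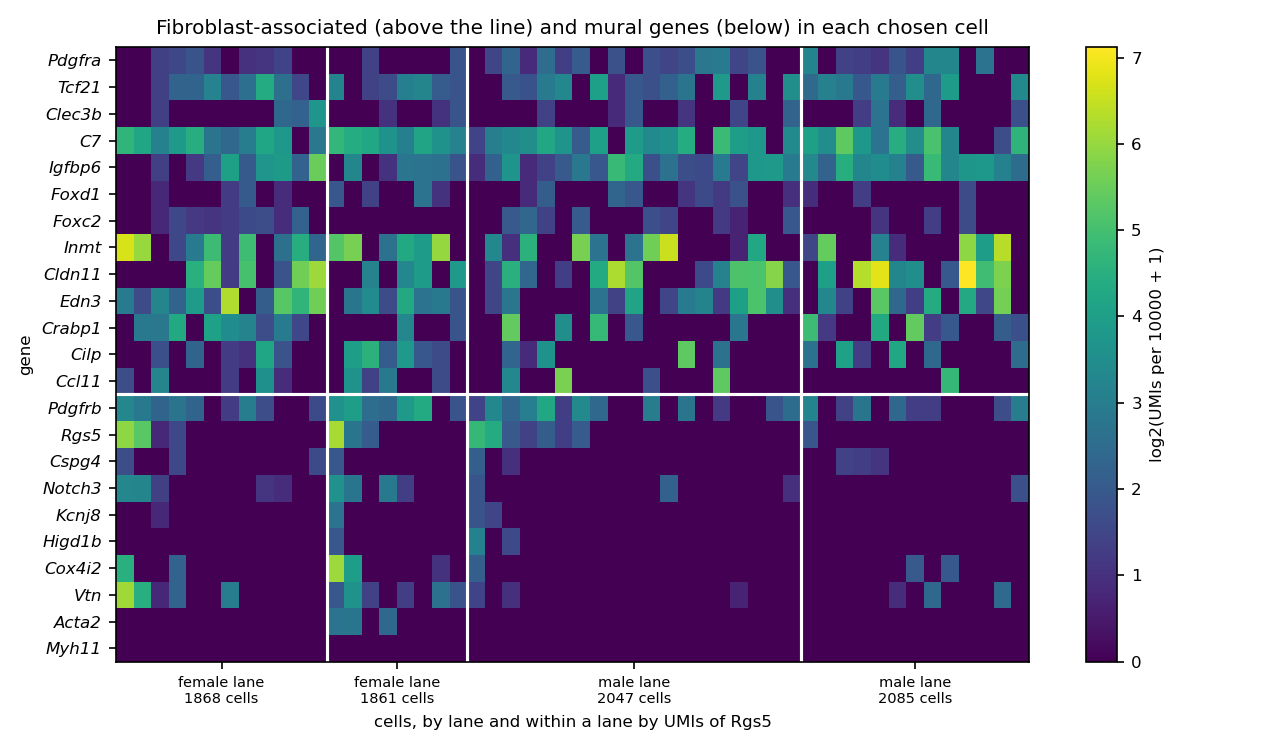
Fibroblast-associated genes (above the horizontal line) and mural genes (below it) in each of the 52 collagen-producing cells, as log2 of UMIs per 10000 UMIs with 1 added; columns are cells, grouped by lane and ordered within a lane by *Rgs5*. *C7* and *Igfbp6* run across nearly all columns (46 and 47 cells), whereas *Rgs5* stands in the leftmost columns of 3 lanes, and *Cldn11* and *Edn3* are high in other cells. Several genes above the line, among them *C7*, *Inmt*, *Cldn11* and *Edn3*, are not on the list of fibroblast markers.

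Markers of other cell types were counted over the whole lists. Endothelial markers summed to 606 CPM, against 12328 CPM in endothelial cells, with 126 of 228 UMIs in a single cell and *Cldn5* at 0; the most abundant was *Eng* (68 UMIs in 32 cells), a TGF-β co-receptor that stromal cells also carry. Leukocyte markers summed to 2679 CPM, of which 989 of 1008 UMIs lay in 3 cells of the male lane with 2047 cells that also met a leukocyte rule. The most abundant was *Cd74*, with 565 of 573 UMIs in these 3 cells, and *Cd3e* was at 0. Of the folliculostellate markers, *Sox9* was at 0 and *S100b* had 13 UMIs, but *Fxyd1* (709.6 CPM in 49 cells) and *Gstm2* (486 CPM in 46 cells) stood near their levels in folliculostellate cells (589 and 681 CPM). In all, 5 of the 52 cells met the rule of another type (1 endothelial, 3 folliculostellate and 3 leukocyte, with overlaps), 4 of them in the male lane with 2047 cells. Erythrocyte markers summed to 74.4 CPM (most abundant *Hba1*, *Alas2* at 0), Schwann and neural crest markers to 79.7 CPM (*Sox10* and *Mag* at 0), posterior pituitary markers to 851 CPM, nearly all of it *Vim* (*Nkx2-1* and *Gfap* at 0), and chondrocyte and bone markers to 23.9 CPM (*Alpl*, with *Col2a1*, *Acan*, *Matn1*, *Comp*, *Bglap* and *Sp7* at 0). The lanes shared 30 cell barcodes, none of them borne by a collagen-producing cell.

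Hormone cell markers summed to 4595 CPM, mostly *Gh1*, and *Fshb* was at 0. *Gh1* made up 0.315% of the UMIs of the collagen-producing cells, 0.283% in endothelial and 0.328% in folliculostellate cells, and 15.8% in hormone-producing cells. A *Gh1* UMI was found in 99.5% of collagen-producing cells and 99.1% of endothelial cells at 2000 UMIs per cell. *Cga* made up 0.00983% of the UMIs of the collagen-producing cells, 0.0104% in endothelial and 0.0641% in folliculostellate cells. These hormone transcripts were at levels also seen in cell types that do not make the hormones, so they are not read as expression, and whether they came from free RNA was not tested.

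To set the collagen-producing cells beside other cells of the gland, UMIs were summed per lane and compared by edgeR's quasi-likelihood test with lane as a block. Endothelial cells were 170 cells with at least 3 of *Plvap*, *Emcn*, *Clec14a* and *Aplnr*. Folliculostellate cells, the S100B-positive supporting cells of the gland, were 2345 cells with at least 3 of *S100b*, *Fxyd1*, *Gstm2* and *Capn6*. Both rules also asked for at least 6 UMIs in their 4 genes. The genes that chose the cells on either side of a comparison were left out of it. Against endothelial cells, 2841 genes had enough counts to be tested; 469 (16.5%) were higher and 465 (16.4%) lower in collagen-producing cells at a Benjamini-Hochberg adjusted p below 0.05. Against folliculostellate cells, whose sums are larger, 11151 genes were tested, 870 (7.8%) higher and 1426 (12.8%) lower. The median log2 fold change over all genes tested was -0.05 and -0.36, and scaling by total UMIs moved these medians to -0.20 and -0.20. With DESeq2, which was run on 16617 and 21852 genes, they were 0.31 and 0.50, of the opposite sign. With scaling by total UMIs the endothelial comparison had 403 genes higher and 605 lower, and the folliculostellate comparison 1004 higher and 1149 lower. With DESeq2 the endothelial comparison had 572 higher and 417 lower, and the folliculostellate comparison 1009 higher and 715 lower. Every gene list below was chosen with earlier results of these data known, so list counts are descriptions, to be read against these shares. A gene with almost no UMIs on either side of a comparison had enough counts only through the other side, which fixes its direction. Counts over such genes are not read as results.

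Genes far above endothelial cells included *Cldn11*, a claudin of tight junctions, *Il13ra2*, a decoy receptor for interleukin 13, and *Cilp*. They were taken by fitted log2 fold change, and most had no UMI in endothelial cells, so their order among themselves is not a measured one. *Cldn11* was at 1610.4 and 454 CPM in the female and 1739 and 3368 in the male lanes and had no UMI in endothelial cells, so that it was at least 1105-fold higher, taking 3 UMIs over the group as the limit of a count of 0. By the same limit *Il13ra2* was at least 367-fold, *Tcf21* at least 257-fold, *Cilp* at least 233-fold, *Itgbl1* at least 224-fold, *Scube1* at least 143-fold and *Cpxm2* at least 108-fold higher. *Gpc3*, a glypican, had 655 UMIs against 3 (ratio 984, 95% counting interval 335 to 4786). *Plac9*, *Crabp1* and *Col18a1* had 242, 230 and 155 UMIs against 1 each, and *C7* was 507-fold higher. The same direction in all 4 lanes was a condition for naming these genes, so it is not read as a result.

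The 6 genes lowest by the fit against endothelial cells had no UMI in the 52 cells, so only a bound can be given for them. They were *Eltd1*, an adhesion receptor of vessels (at least 32.5-fold lower), *Mal* (at least 35.4-fold), *Treml1* (32.3), *Ptpru* (31.1), *Cmtm8* (28.6) and *Pcdh17* (28.2). All 9 endothelial markers tested were lower (median log2 fold change -4.59), among them the VEGF receptor *Kdr* (37.2 against 1237 CPM, log2 fold change -5.13 ± 0.48 (SE) with adjusted p = 1.11e-05). Markers this low in the 52 cells passed the filter only through endothelial cells, so the count of 9 is not read as a result.

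Above folliculostellate cells the genes leading by the fit included *Inmt*, *Vtn*, *C7*, *Ccl11* and *Tcf21*. *Inmt* was at 1708 and 2423 CPM in the female and 932 and 1641 in the male lanes, against 0.232 CPM (log2 fold change 12.31 ± 0.35 (SE) with adjusted p = 2.95e-256). *C7* was at 1099, 1363, 1056 and 1427 CPM, with little spread between lanes, against 0.279 CPM (log2 fold change 11.72 ± 0.35 (SE) with adjusted p = 1.51e-233). *Vtn* was absent from folliculostellate cells and at least 1412-fold higher, *Gpr81*, a lactate receptor, at least 687-fold, *Foxf2* and *Foxd1* each at least 592-fold and *Tbx1* at least 419.8-fold. *Il13ra2*, *Colec12*, a scavenger receptor, and *Tfap2b* completed the 12 genes. *Cd24* (29090 UMIs in folliculostellate cells and none in the 52 cells, at least 169-fold lower), *Ppp2r2b*, *Nrcam-2*, *Ntrk2*, *Hspb8* and *Six6*, a transcription factor of the pituitary primordium, were lowest by the fit, each at 0 here. Of 8 folliculostellate markers tested 6 were lower, and *Edn3* and *Mdk*, a heparin-binding growth factor (872 CPM in 52 cells), were higher (log2 fold change 2.09 ± 0.21 (SE) with adjusted p = 1.04e-20 for *Edn3*). All 6 endothelial markers tested were higher than in folliculostellate cells, with *Plvap* at 1.87 on the log2 scale and at -0.33 by DESeq2. Of the 228 UMIs of the whole endothelial list in the 52 cells, 126 lay in 1 cell, and 68 were of *Eng*. All 6 leukocyte markers tested were higher as well, with 989 of their 1008 UMIs in the 3 cells named above. Without the cells that met another type's rule the log2 fold change was -2.0045 for *Cd74* (1.16 with them), -0.73 for *Tyrobp* (2.95) and -1.05 for *Lyz2* (2.29), and without the male lane with 2047 cells the values were -1.78, -0.54 and -1.18. Against endothelial cells, 4 of 4 folliculostellate markers were higher and 0 of 3 leukocyte markers passed. The 4 of 4 is not read as a result, since markers low in endothelial cells passed the filter only through the collagen-producing cells. Of hormone cell markers outside the rule, 0 of 2 passed against endothelial cells and 2 of 7 were lower than in folliculostellate cells. Erythrocyte markers were lower in both comparisons (1 of 1 and 3 of 3). No posterior pituitary marker passed (1 and 2 tested), no Schwann cell marker passed (0 and 1 tested), and *Sox9* was the only cartilage and bone marker tested. Of the genes known from meningeal fibroblasts, 2 of 2 were higher than in endothelial cells, and 1 of 4 was higher and 3 lower than in folliculostellate cells.

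**Figure D2:**
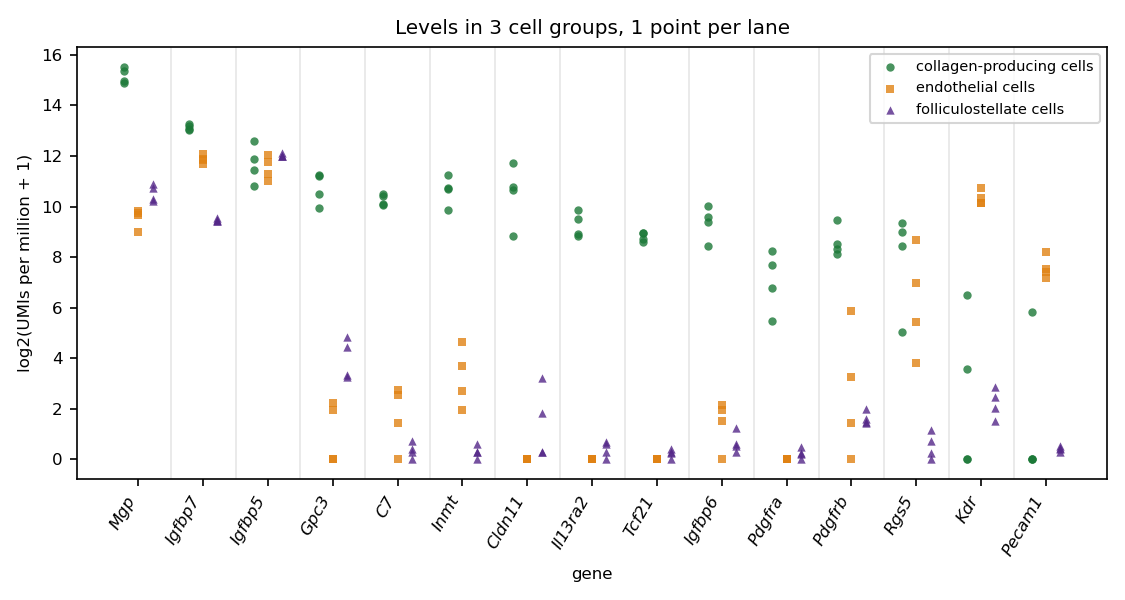
Levels of 15 genes as log2 of CPM with 1 added in collagen-producing, endothelial and folliculostellate cells, with 1 point per lane and cell group. *Mgp*, *Gpc3*, *C7*, *Inmt*, *Tcf21*, *Igfbp6* and *Pdgfra* stand apart from both other groups in all 4 lanes, *Rgs5* overlaps with endothelial cells (132 of whose 160 UMIs of this gene lay in 7 cells with at least 3 mural genes), and *Kdr* and *Pecam1* are high in endothelial cells.

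Of the fibrillar and associated collagens outside the rule, 6 of 6 tested were higher than in endothelial cells (median log2 fold change 6.34) and 10 of 11 higher than in folliculostellate cells (median 3.29), with *Col27a1* lower. The list had 14 genes with counts, and those near 0 in endothelial cells, such as *Col6a1*, passed the filter only through the collagen-producing cells. The 6 of 6 and its median are therefore not read as a result. *Col6a1*, a chain of the beaded microfibrils around cells, was at 1240.5 and 1233 CPM in the female and 745 and 1105 in the male lanes, against 3.54 in endothelial and 8.12 in folliculostellate cells (log2 fold change 8.17 ± 0.53 (SE) with adjusted p = 6.96e-07 and log2 fold change 6.93 ± 0.26 (SE) with adjusted p = 2.61e-148). *Col6a2* stood at 656 CPM and *Col6a3* at 178 CPM. *Col5a1* and *Col5a2*, which set fibril diameter, were at 447 and 351 CPM, and *Col8a1*, a network collagen of vessel walls, at 388 CPM, each higher than in both other groups. *Col1a2*, the partner chain of *Col1a1*, had no UMI in these cells.

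Enzymes and chaperones that act on procollagen followed, with 9 of 11 genes tested higher than in endothelial cells and 12 of 22 higher than in folliculostellate cells, none lower in either. *Ctsk*, a lysosomal protease that degrades collagen, was 3.76 log2 units above endothelial and 6.82 above folliculostellate cells. *Pcolce*, the enhancer of the C-proteinase, was at 1338 and 1147 CPM in the female and 1118 and 1824 in the male lanes, against 13.6 and 11.0 CPM (log2 fold change 6.72 ± 0.28 (SE) with adjusted p = 3.7e-08 and log2 fold change 6.77 ± 0.25 (SE) with adjusted p = 3.38e-151). *Adamts2*, the N-proteinase, and the crosslinking oxidases *Loxl1* and *Lox* were at 151, 388 and 282 CPM, and all 3 passed both tests. *Sparc*, a collagen-binding matricellular protein, was among the most abundant genes here (5941, 6057, 5535 and 5428 CPM) but lay only 0.54 log2 units above endothelial cells (SE 0.11, adjusted p = 0.00248). The chaperones *Serpinh1* and *Ppib*, used by every cell that secretes collagen, were 0.53 and 0.65 log2 units above endothelial cells. With DESeq2 neither passed (adjusted p = 0.290 and 0.107), *Serpinh1* did not pass with scaling by total UMIs (adjusted p = 0.0746), and each lost its call with at least 1 lane left out.

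Among the small leucine-rich proteoglycans other than the rule genes, 2 of 2 tested were higher than in endothelial cells, and 2 of 5 higher and *Fmod* lower than in folliculostellate cells. *Bgn*, biglycan, was the most abundant, at 1186 and 1428 CPM in the female and 1442 and 1427 in the male lanes (308 in endothelial and 13.1 in folliculostellate cells; log2 fold change 2.30 ± 0.15 (SE) with adjusted p = 7.19e-07 and log2 fold change 6.53 ± 0.25 (SE) with adjusted p = 6.23e-146). *Prelp*, a basement membrane anchor, was higher than in endothelial cells (log2 fold change 4.60 ± 0.43 (SE) with adjusted p = 1e-05), and its 425 CPM did not differ detectably from 309.5 CPM in folliculostellate cells (adjusted p = 0.305). *Podn* was higher than in folliculostellate cells (log2 fold change 4.10 ± 0.54 (SE) with adjusted p = 9.9e-13). *Fmod*, *Ogn*, *Aspn*, *Kera* and *Chad* had no UMI; *Fmod* had 1894 in folliculostellate cells.

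Elastic fibre genes were higher for 5 of 7 tested against endothelial cells, with *Emilin2* lower, and for 9 of 13 against folliculostellate cells. *Eln*, elastin, led the list with 990.2 and 1060.0 CPM in the female and 366 and 343 CPM in the male lanes, against 5.30 and 7.06 (log2 fold change 7.34 ± 0.48 (SE) with adjusted p = 6.99e-07 and log2 fold change 6.29 ± 0.27 (SE) with adjusted p = 8.77e-116). Both female lanes lay above both male lanes for this gene. *Ltbp4*, which anchors latent TGF-β and guides elastin assembly, was at 499.7 CPM, *Mfap2* at 319, *Fbn1*, fibrillin, at 311 and *Efemp2* at 303, all higher than in both other groups. *Mfap4* was at 0.

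Basement membrane genes were set against both groups, and the difference between the 2 comparisons was not tested. Against folliculostellate cells 10 of 13 were higher (median 3.95), with *Lama5* lower. Against endothelial cells 5 of 11 were higher and *Hspg2*, perlecan, was lower (log2 fold change -1.46 ± 0.24 (SE) with adjusted p = 0.000665), with a median of 0.54. *Col4a1* was at 827 and 2055 CPM in the female and 1111 and 933 in the male lanes, and at 854 CPM in endothelial cells (log2 fold change 0.54 ± 0.22 (SE) with adjusted p = 0.0815), which did not pass the test. The genes above endothelial cells were *Col18a1*, whose terminal fragment is endostatin (412 CPM), *Lama2*, the laminin chain of muscle and mural basement membranes (202 against 2.36 CPM, log2 fold change 6.43 ± 0.64 (SE) with adjusted p = 1.57e-05), *Lamb1*, *Nid1* (946 against 238 CPM) and *Col4a2*. The call of *Col4a2* (log2 fold change 0.76) was lost with DESeq2 (0.64, adjusted p = 0.143) and without the male lane with 2047 cells (0.56, adjusted p = 0.0775).

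The most abundant gene of all in the collagen-producing cells was *Mgp*, the matrix Gla protein, an inhibitor of calcification and of BMP ligands. It was at 30750.1 and 47550 CPM in the female and 31886 and 41920.1 in the male lanes, against 776 CPM in endothelial and 1545 CPM in folliculostellate cells (log2 fold change 5.78 ± 0.18 (SE) with adjusted p = 6.15e-09 and log2 fold change 4.48 ± 0.20 (SE) with adjusted p = 4.13e-106). *Apoe* and *Igfbp7* were also among the 4 most abundant genes. Of the matrix glycoproteins tested, 10 of 12 were higher than in endothelial cells and 11 of 17 higher than in folliculostellate cells, with *Thbs1*, *Vcan* and *Abi3bp* lower than in the latter. *Spon1*, F-spondin, was at 521 CPM against 1.18 and 26.8, and *Fn1*, fibronectin, at 271 against 1.77 and 4.32. Genes this low in endothelial cells passed the filter only through the collagen-producing cells, so the 10 of 12 is not read as a result. *Spon2*, *Matn2*, *Tgfbi* and *Dpt*, dermatopontin, passed both tests too.

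Proteases and their inhibitors were higher for 8 of 9 genes against endothelial and 10 of 14 against folliculostellate cells. *Serpine2*, protease nexin 1, was at 2840.0 and 3245 CPM in the female and 2181 and 1984 in the male lanes (124 and 44.5 CPM in the other groups, log2 fold change 4.47 ± 0.19 (SE) with adjusted p = 3.7e-08 and log2 fold change 5.66 ± 0.23 (SE) with adjusted p = 3.44e-132). *Mmp2*, gelatinase A, was at 501, 433, 483 and 772 CPM, and *Mmp14*, its membrane activator, at 329.6 CPM, each higher than in both. *Timp2* was higher than in both groups. *Timp3*, which binds to the matrix, was at 2164 CPM against 2411 CPM in endothelial cells (log2 fold change -0.0561 ± 0.25 (SE) with adjusted p = 0.895) and was higher than in folliculostellate cells, while *Timp1* was higher than in endothelial cells and lower than in folliculostellate cells (356 against 1321 CPM, log2 fold change -1.99 ± 0.22 (SE) with adjusted p = 2.11e-18). *Mmp3*, *Mmp9* and *Mmp13* had no UMI.

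**Figure D3:**
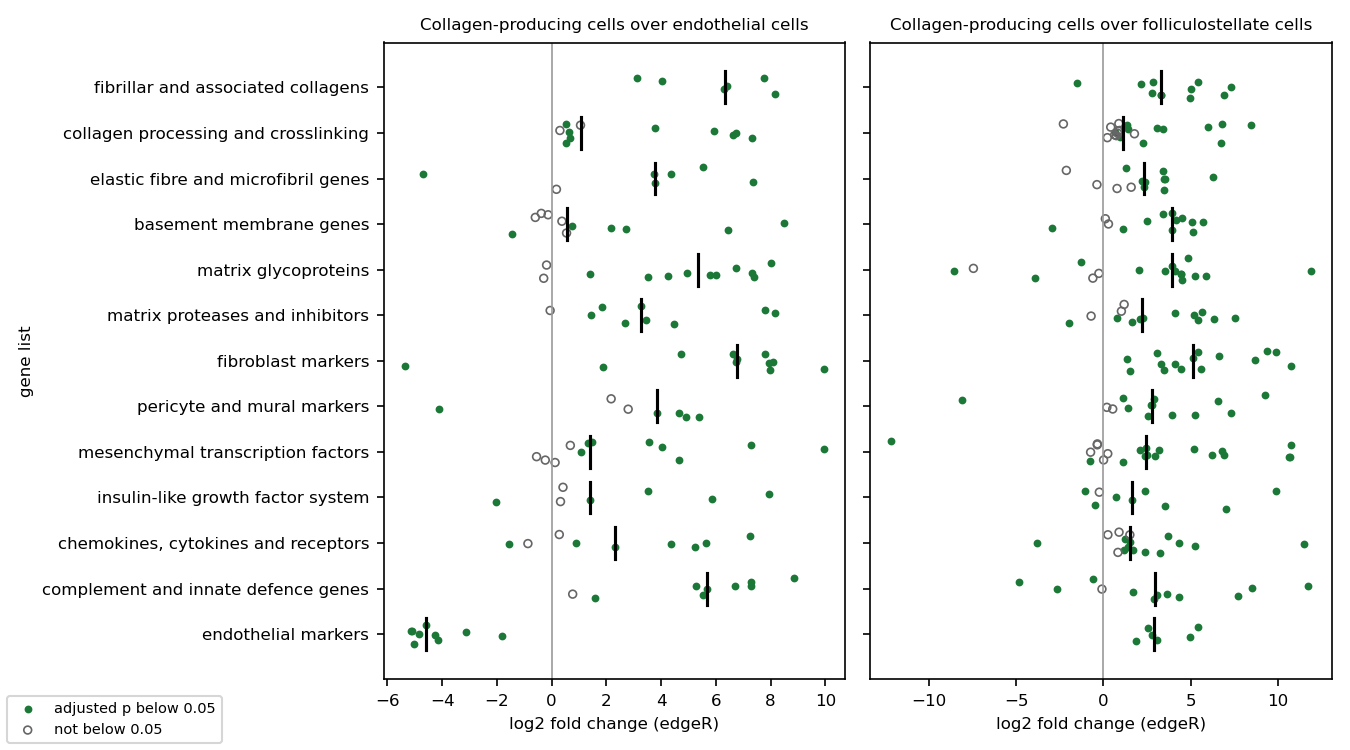
Log2 fold changes of every tested gene in 13 lists, collagen-producing over endothelial cells (left) and over folliculostellate cells (right); each point is a gene, filled where the adjusted p was below 0.05, and bars are list medians. In the left panel nearly all filled points lie right of 0 for collagens, glycoproteins and fibroblast markers (medians 6.34, 5.36 and 6.76), the median of basement membrane genes is 0.54, and endothelial markers lie left of 0, as they do not in the right panel. Genes near 0 in endothelial or in folliculostellate cells passed the filter only through the collagen-producing cells, which fixes their side. Endothelial markers that are low in the collagen-producing cells passed it only through the endothelial cells, which fixes their side in the left panel.

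Of the 20 fibroblast markers, 10 of 11 tested were higher than in endothelial cells, with *Cd34*, which endothelium carries too, lower, and 15 of 15 were higher than in folliculostellate cells. Those near or at 0 in endothelial cells, such as *Igfbp6* and *Tcf21*, passed the filter only through the collagen-producing cells. Those near 0 in folliculostellate cells, such as *Igfbp6*, passed the filter in the same way. The 10 of 11 and the 15 of 15 are therefore not read as results. *Igfbp6*, whose promoter is printed above, was at 773 and 346 CPM in the female and 663 and 1029.8 in the male lanes (2.36 and 0.650 CPM in the other groups). *Serpinf1*, an anti-angiogenic serpin, was at 870.5, 454, 573 and 1255 CPM, *Gsn*, gelsolin, at 579, *Islr* at 353 and *Srpx* at 295. *Clec3b* (106 CPM in 18 cells), *Pi16* (8 cells) and *Dpt* (21 cells), markers of the adventitial fibroblasts of many organs, were found in fewer cells. Of genes known from meningeal fibroblasts other than *Dcn*, *Foxc1* and *Foxc2* were present, *Aldh1a2*, *Ptgds* and *Nnat* were lower than in folliculostellate cells, and *Slc6a13*, *Slc13a3*, *Crabp2* and *Zic1* had no UMI.

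Mural markers gave 4 of 7 genes higher than in endothelial cells and *Mcam* lower, and 11 of 14 higher than in folliculostellate cells, with *Myh11* lower. The call of *Myh11* was lost with DESeq2 and with any 1 lane left out (adjusted p from 0.0596 to 0.280). Its log2 fold change, a fit against 0 counts, was -8.10 in the main fit and -2.53 with DESeq2. With a lane left out it stayed between -7.86 and -8.25. *Rgs5* was at 511 and 649 CPM in the female and 345 and 32.2 in the male lanes, low only in the male lane with 2085 cells, and at 94.3 CPM in endothelial cells (log2 fold change 2.17 ± 0.95 (SE) with adjusted p = 0.108). Of the 160 UMIs of *Rgs5* in endothelial cells, 132 lay in the 7 cells with at least 3 mural genes named above. With these, deep and doubly marked endothelial cells left out, a setting chosen after seeing the data that keeps 128 cells, the log2 fold change was 4.16 for *Rgs5* and 9.20 for *Pdgfrb* (5.39 with them). The cells were left out partly by these 2 genes, which fixes the direction of that move, so both values are given as a description and no call is read from them. *Tagln* and *Gucy1a3*, not used to leave cells out, moved from 4.89 to 6.42 and from 3.86 to 5.89. *Heyl* and *Mcam*, also not used, moved less, from 4.67 to 5.13 and from -4.10 to -4.05. *Tagln*, an actin-binding protein of contractile cells, was at 729 and 1666 CPM in the female and 904 and 247 in the male lanes, above endothelial cells (log2 fold change 4.89 ± 0.55 (SE) with adjusted p = 4.26e-05) and not detectably different from 627 CPM in folliculostellate cells (adjusted p = 0.599). *Heyl*, a Notch target of mural cells, was at 287 CPM and passed both tests. Of the contractile and cytoskeletal genes, 7 of 9 were higher than in endothelial cells, and 8 of 13 higher and 3 lower than in folliculostellate cells. *Tpm2* (289.7 CPM against 4.72 and 6.55), *Myl9*, *Tpm1*, *Cald1*, *Actn1* and *Flna* were higher than in both groups. *Vim*, vimentin, at 839.9 CPM did not pass either test.

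Mesenchymal transcription factors were higher for 8 of 12 genes against endothelial and 14 of 21 against folliculostellate cells. *Tcf21* had 501 and 389 CPM in the female and 421 and 493 in the male lanes, with a narrow spread. *Nr2f2*, a nuclear receptor of venous and mesenchymal cells, was the most abundant of the list (489.7, 346, 676 and 740.1 CPM) and higher than in both groups. *Foxs1* (215 CPM), a forkhead factor of pericytes, *Nr2f1*, *Foxc1* and *Heyl* were higher than in both groups as well. *Ebf1* was at 351 CPM, near the 244 CPM of endothelial cells (log2 fold change 0.68 ± 0.24 (SE) with adjusted p = 0.0519), and higher than in folliculostellate cells (log2 fold change 5.22 ± 0.28 (SE) with adjusted p = 1.02e-72). *Prrx1*, at 128 CPM, was higher than in endothelial cells and lower than in folliculostellate cells (log2 fold change -0.75 ± 0.28 (SE) with adjusted p = 0.0349), and *Sox9* was absent.

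The PDGF and VEGF genes were led by *Pdgfrb*, which was higher than in endothelial cells, those with mural genes included (log2 fold change 5.39 ± 0.71 (SE) with adjusted p = 0.000126), and than in folliculostellate cells (log2 fold change 7.34 ± 0.32 (SE) with adjusted p = 2.81e-112). Among ligands, *Pdgfd* was at 122 CPM and higher than in both groups, and *Pdgfa* at 29.2 CPM passed neither test. *Angpt2*, an antagonist of the Tie2 receptor, was at 97.9 and 129.8 CPM in the female and 96.6 and 129 in the male lanes, against 13.0 and 4.27 CPM (log2 fold change 3.16 ± 0.41 (SE) with adjusted p = 0.000129 and log2 fold change 4.73 ± 0.48 (SE) with adjusted p = 1.27e-21). *Vegfa* had only 8 UMIs. Over the whole list, 4 of 8 genes were higher and 3 (the endothelial receptors *Kdr*, *Flt1* and *Tek*) lower than in endothelial cells, and 6 of 13 were higher than in folliculostellate cells, with *Angpt1* lower.

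The insulin-like growth factor system was abundant, at 16197 CPM summed over its 10 genes. *Igf1*, the growth factor itself, was at 925 and 1319.6 CPM in the female and 1090.5 and 783 in the male lanes, against 96.7 CPM in endothelial and 6.96 CPM in folliculostellate cells (log2 fold change 3.51 ± 0.21 (SE) with adjusted p = 4.9e-07 and log2 fold change 7.04 ± 0.27 (SE) with adjusted p = 5e-149). Its receptor *Igf1r* was at 42.5 CPM and lower than in folliculostellate cells. The binding proteins *Igfbp7* (9063 CPM), *Igfbp2* (989 CPM) and *Igfbp6* were higher than in both groups, and *Igfbp3* was lower than in endothelial cells (log2 fold change -2.04 ± 0.36 (SE) with adjusted p = 0.00100). *Igfbp5* was at 1774 and 2769 CPM in the female and 3809.8 and 6189 in the male lanes, a range that spans the levels of the other groups (3347 and 4191 CPM). It was lower than in folliculostellate cells (log2 fold change -0.50 ± 0.19 (SE) with adjusted p = 0.0367) and did not pass against endothelial cells (adjusted p = 0.555). The call of *Igfbp5* was lost with DESeq2 (adjusted p = 0.436), with scaling by total UMIs (0.0829) and without either female lane (0.641 and 0.194).

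Of the TGF-β and BMP system, 3 of 10 genes were higher and 4 lower than in endothelial cells, and 9 of 25 higher and 3 lower than in folliculostellate cells. *Fstl1*, a secreted follistatin-like protein, was found in all 52 cells (1654, 1558, 1166 and 1255 CPM) and was higher than in both groups. *Tgfbr2* was at 226 CPM, between folliculostellate (24.7) and endothelial cells (1339). *Bmp4* (109 CPM) was higher than in both groups and *Bmp2* (71.8 CPM) higher than in folliculostellate cells, whereas *Bmp6*, *Gdf15*, *Nog* and *Grem1* had no UMI. Of 19 WNT genes, 4 of 4 tested were higher than in endothelial cells and 6 of 10 higher than in folliculostellate cells, with *Wnt5a* lower. *Sfrp1*, near 0 in endothelial cells, passed the filter only through the collagen-producing cells, so the 4 of 4 is not read as a result. The abundant WNT genes were antagonists and receptors. *Sfrp1*, a secreted decoy, was at 849 and 649 CPM in the female and 1229 and 1523 in the male lanes, against 2.95 and 13.3 CPM (log2 fold change 8.26 ± 0.32 (SE) with adjusted p = 2.34e-08 and log2 fold change 6.20 ± 0.26 (SE) with adjusted p = 4.23e-126), and *Dkk2* and *Fzd2* passed both tests.

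Chemokines and cytokines were unevenly spread over the cells. *Cxcl12*, the ligand of CXCR4, was found in 45 cells, at 925 and 779 CPM in the female and 600.5 and 687 in the male lanes, and *Il34*, a ligand of the CSF1 receptor, in 38 cells (221 CPM); both were higher than in both groups. *Ccl2* had 533 UMIs in 26 cells, *Ccl11*, eotaxin, 120 in 14 cells and *Ccl7* 235 in 9 cells, of which 204 were in 3 cells. *Il6* had 29 UMIs, 28 of them in 1 cell of the female lane with 1861 cells. Over the list 6 of 9 genes were higher than in endothelial cells and 11 of 16 higher than in folliculostellate cells, with *Tnfrsf1a* and *Il33* lower, respectively.

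Complement genes were higher for 8 of 9 tested against endothelial cells. Those with few UMIs in endothelial cells, such as *Serping1*, passed the filter only through the collagen-producing cells. The 8 of 9 is therefore not read as a result. *C7*, which joins the membrane attack complex, is given above. *C1s* and *C1r*, the proteases of the classical pathway, were at 396 and 391 CPM, and their inhibitor *Serping1* at 533 and 411 CPM in the female and 511 and 590.0 in the male lanes (2.95 and 36.2 CPM in the other groups). Among 12 genes tested against folliculostellate cells 8 were higher and *Cfb*, *Cd59* and *Lcn2* lower. *Rarres2*, chemerin, was at 1034 CPM and *Apoe*, the lipid carrier, at 11414 and 10470.5 CPM in the female and 10180.1 and 15886 in the male lanes, each higher than in both groups.

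Of the retinoid and steroid genes, 4 of 6 tested were higher than in endothelial cells (median 3.53), and 3 of 11 were higher and 3 lower than in folliculostellate cells (median -0.65, or 0.02 with genes at 0 set to the limit of a count of 0). *Crabp1*, which binds retinoic acid, was at 611 CPM in 24 cells. *Aldh1a1* and *Aldh1a2*, which make retinoic acid, were at 167 and 71.8 CPM and lower than in folliculostellate cells (-1.07 and -1.07 on the log2 scale), and *Aldh1a3* was at 0. *Esr1*, *Esr2* and *Pgr*, receptors of ovarian steroids, had no UMI, a count that allows up to 7.97 CPM. *Hsd11b1*, which regenerates active glucocorticoid, was at 431 CPM and higher than in endothelial cells (log2 fold change 4.29 ± 0.56 (SE) with adjusted p = 0.000115).

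Of 23 genes known to respond to tissue dissociation, 8 of 22 tested were higher and 2 lower than in endothelial cells, and 17 of 22 were lower than in folliculostellate cells, with *Cebpd* higher. Median log2 fold changes were 0.40 and -1.01. Their sum in the collagen-producing cells was 36256 and 25289 CPM in the female lanes and 17993 and 19351 CPM in the male lanes, with *Fos* the most abundant (11023, 7031, 3630.3 and 3454 CPM). The part of this response in the comparisons was not tested. Of the cell cycle genes, 0 of 2 and 0 of 16 tested were higher and 1 was lower in each comparison (adjusted edgeR quasi-likelihood test).

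Members differed among themselves in *Cldn11*. It was at 10 or more UMIs in 19 cells (5 and 0 in the female, 7 and 7 in the male lanes), at 1 to 9 in 14 and at 0 in 19. The cells were grouped by *Cldn11*, so the following levels are a description, given in that order. *Edn3*, endothelin 3, was at 1409, 1323 and 399 CPM. The opposite order was seen for *Mgp* (24124, 40328 and 46418 CPM), *Col3a1* (2241, 3917 and 5260), *C7* (899, 1127 and 1587), *Ccl2* (409, 868 and 2975) and *Col4a1* (510, 992 and 1894). *Rgs5* was detected in 1 of the 19 cells rich in *Cldn11* and in 10 of the 19 without it. *Dcn* did not follow either order (8218, 6067 and 6325 CPM). *Inmt* (1597, 599 and 2001 CPM) was high at both ends.

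Other genes were patchy within the population. *Cilp* was detected in 23 cells, where *Gpx3*, a secreted peroxidase, was at 2898 CPM and *Apod* at 756 CPM, and in none of the 5 cells rich in *Rgs5*. *Aqp1*, a water channel, had 147 UMIs in 15 cells, 97 of them in 3 cells, and *Apod* had 167 in 21, 109 of them in the male lane with 2085 cells. *Ccl7* was detected in 9 cells, of which 7 were in the female lanes, and these cells had *Ccl2* at 3429 CPM, *Cxcl1* at 1309 and *Fos* at 10880. In 1 cell of the female lane with 1868 cells, 15 of 17 cell cycle genes were detected with 122 UMIs, where the next highest cell had 3 of these genes; all 52 cells together had 154.

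The share of collagen-producing cells was compared between the sexes over lanes. It was 0.642% and 0.430% in the female lanes and 0.928% and 0.624% in the male lanes, so the ranges of the sexes overlapped. Pooled by sex, 20 of 3729 female cells (0.536%, exact 95% Clopper-Pearson interval 0.328% to 0.827%) and 32 of 4132 male cells (0.774%, 0.530% to 1.09%) met the rule. The lanes' means differed by 0.240 percentage points (exact permutation test, 2-sided, p = 0.667; 2 lanes against 2 allow no p below 0.333). Intervals cover counting error only. Endothelial cells were 2.76% of female and 1.62% of male cells.

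**Figure D4:**
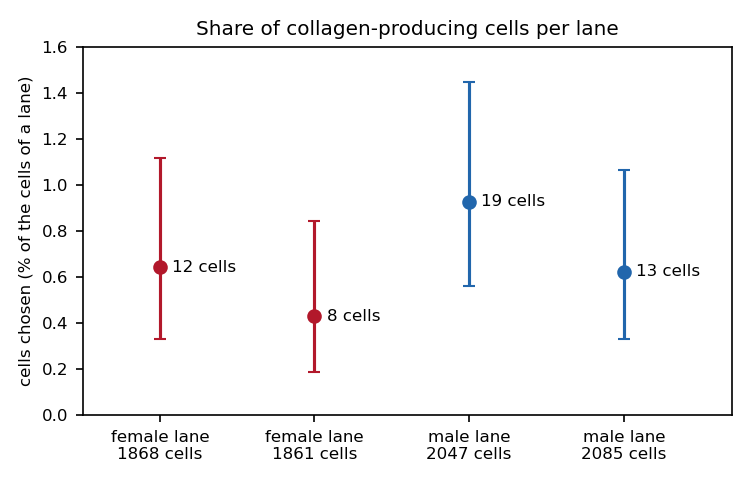
Collagen-producing cells as a share of all cells of a lane (percent), with exact 95% binomial intervals and the number of cells beside each point. The male lane with 2047 cells is highest (0.928%) and the female lane with 1861 cells lowest (0.430%), and all intervals overlap.

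Within the collagen-producing cells, few genes separated the male from the female lanes. Of 1611 genes tested by edgeR's quasi-likelihood test, 5 (0.31%) were higher in males and 10 (0.621%) higher in females at a Benjamini-Hochberg adjusted p below 0.05, and 147 (9.12%) had an unadjusted p below 0.05. One of the 10 was *Prl*, whose share the rule limits, so its call is not read as a result. For all 15 genes both lanes of one sex lay above both of the other. The calls changed with the lanes and cells used. Without the female lane with 1861 cells no gene passed (132 genes at an unadjusted p below 0.05), without the 5 cells that met another type's rule none passed (141 genes), and DESeq2 called 0 and 4. Without the female lane with 1868 cells 39 and 27 genes passed, without the male lane with 2047 cells 15 and 25, and without the male lane with 2085 cells 27 and 25, higher in males and in females, respectively. Leaving out a lane could not reverse a direction, since the lanes of the sexes did not overlap for any of the 15 genes. The directions of the 14 genes other than *Prl* were the same in each of these settings. Their log2 fold changes stood at 72.0% to 147% of the values given here without the male lane with 2047 cells. Without the male lane with 2085 cells they stood at 80.3% to 177%, and without the female lane with 1868 cells at 68.3% to 139%. They stood at 81.0% to 123% without the 5 cells and at 58.9% (*Cox4i2*) to 132% without the female lane with 1861 cells. *Xist* was at -7.74 in both of these settings, with adjusted p = 0.0586 and 0.649.

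Sex-linked genes were looked at as a check of the sex given to each lane. *Xist*, the RNA of the inactive X chromosome, had 23 and 21 UMIs in the female lanes and none in the male lanes (-7.95 on the log2 scale, a fit against 0 counts, adjusted p = 0.00257). *Eif2s3y* had 7 and 6 UMIs in these cells of the male lanes and none in the female lanes, and over whole lanes 0 and 1 in the female and 2038 and 2100 in the male lanes. *Ddx3y*, with 10 and 8 UMIs in the female and 11 and 14 in the male lanes, did not separate them. *Prl*, limited by the rule, was at 1251 and 1860.5 CPM in the female and 338 and 172 CPM in the male lanes; it is among the genes counted above, and its call is set aside because the rule used it.

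Of the list of chemokines, cytokines and receptors, 7 genes were tested between the sexes. The chemokines *Ccl7*, *Ccl2* and *Cxcl1*, 3 of these 7, were higher in females, beside 0.621% of all genes tested. *Ccl2* was at 1904 and 4132 CPM in the female and 779.9 and 579 in the male lanes (log2 fold change -2.10 ± 0.37 (SE) with adjusted p = 0.0128), and the lanes did not overlap. *Cxcl1*, a neutrophil attractant, was at 762 and 1947 and 366 and 161 CPM (log2 fold change -2.24 ± 0.46 (SE) with adjusted p = 0.0291), and *Ccl7* at 2013 and 714 and 6.90 and 172 CPM (log2 fold change -4.14 ± 0.68 (SE) with adjusted p = 0.00989), of which 139 UMIs were in 1 cell. The log2 fold change of *Ccl7* was -7.33 without the male lane with 2085 cells and -2.98 without the male lane with 2047 cells. That of *Cxcl1* was -1.41 without the female lane with 1861 cells and -3.03 without the male lane with 2047 cells. The dissociation response genes, given above, had a higher sum in the female lanes as well, and their part in these differences was not tested. In folliculostellate cells the sex difference of *Ccl2* was -0.43 on the log2 scale, and whether the sizes differ between cell types was not tested.

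*Eln* was at 990.2 and 1060.0 CPM in females and 366 and 343 in males (log2 fold change -1.49 ± 0.31 (SE) with adjusted p = 0.0291). *Vtn* was at 533 and 281 and 27.6 and 85.8 CPM (log2 fold change -2.99 ± 0.50 (SE) with adjusted p = 0.00989) and *Cox4i2* at 131 and 649 and 27.6 and 32.2 CPM (log2 fold change -3.46 ± 0.76 (SE) with adjusted p = 0.0414); the 5 cells rich in *Rgs5*, of which 3 were female, held most of the UMIs of both. *Tppp3*, a tubulin-binding protein, was at 337 and 952 and 117 and 32.2 CPM (log2 fold change -2.84 ± 0.55 (SE) with adjusted p = 0.0276). *Tuba1b*, a tubulin, was at 1806 and 1125 and 518 and 493 CPM (log2 fold change -1.52 ± 0.31 (SE) with adjusted p = 0.0291), and 109 of its 339 UMIs came from the cell with 15 cell cycle genes.

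Higher in males were *Rgs2*, a regulator of G-protein signalling (32.6 and 108 CPM in the female and 469 and 311 in the male lanes, log2 fold change 2.75 ± 0.52 (SE) with adjusted p = 0.0229), *Pltp*, a phospholipid transfer protein (10.9, 21.6, 159 and 225 CPM, log2 fold change 3.61 ± 0.74 (SE) with adjusted p = 0.0291), and *Phlda1* (131, 64.9, 393 and 504 CPM, log2 fold change 2.08 ± 0.41 (SE) with adjusted p = 0.0276). *Hsd11b1* was at 218 and 108 CPM in the female and 579.8 and 569 in the male lanes (log2 fold change 1.74 ± 0.38 (SE) with adjusted p = 0.0396). The fifth was listed only as ENSRNOG00000030478 (log2 fold change 1.95 ± 0.43 (SE) with adjusted p = 0.0454). *Pdgfra*, at 109, 43.3, 207 and 300.3 CPM, had every male lane above every female lane and did not pass (adjusted p = 0.204). Genes described above as confined to or abundant in these cells were uneven in this respect. *Vtn* passed the test, whereas *C7*, *Tcf21*, *Mgp* and *Igfbp7* had log2 differences of 0.0387, 0.0372, -0.0682 and 0.0872, each within its standard error.

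**Figure D5:**
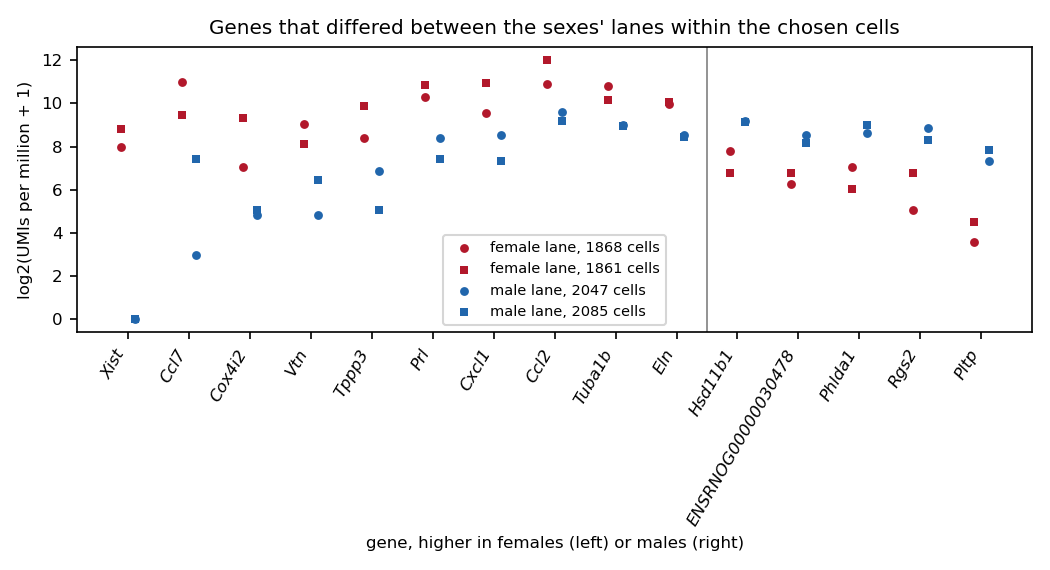
The 15 genes that passed the test between male and female lanes, as log2 of CPM with 1 added, with 1 point per lane (females red, males blue). Both points of one sex lie above both of the other for each gene, and *Ccl7*, *Cox4i2* and *Tppp3* also differ widely between lanes of the same sex; *Prl* is limited by the rule.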

How the data were processed

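Libraries were made by the authors with 10X Genomics 3′ chemistry and counted with Cell Ranger 2.1 (submitters' processing notes) against an extended Rnor6 reference. The deposited values are whole UMI counts per gene and cell. The authors had joined the lanes with Cell Ranger's aggr step, which in its mapped mode subsamples reads until lanes have a like number per cell, so lane totals do not show the original depth. The 4 lanes held 18955509 to 24048021 UMIs over 30058 genes, and no cell was filtered further. No doublet caller was run, and cells above 2 times the median UMIs of their lane were counted instead. Lanes were told apart by the suffix of the cell barcode and given a sex by matching the number of barcodes per suffix to the cells per lane that the study states, since the labels do not tie suffixes to samples.

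UMIs of the chosen cells were summed per lane and fitted with edgeR 4.0.16 (limma 3.58.1, R 4.3.3), with TMM factors, filterByExpr at a minimum count of 10, the quasi-likelihood test and Benjamini-Hochberg adjustment over all genes tested at 0.05. Comparisons of cell types had lane as a block, and sex was tested over lanes. Sums and intervals were made in Python 3.11.15 with numpy 2.4.6, scipy 1.17.1 and pandas 2.3.3. A count of 0 was taken to allow 3 UMIs over the group, and detection was also counted with each cell thinned to 2000 UMIs.

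The named genes were the 25 with the largest share of UMIs in the chosen cells (at least 30 UMIs and 20% of the cells), the 12 highest and 6 lowest called genes per cell type comparison, the called sex genes with lanes apart, and the 4 most abundant genes of each list, or all genes of a list that marks another type. Other genes named were chosen after their values were seen. Some genes that these rules name are not reported here. Of 490 genes in 31 lists, 483 were found, some under older or provisional symbols, such as *Clec3b* as LOC100912012 and *Xist* as LOC100911498. The chosen cells and the lists were chosen with earlier results of these data known.

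On simulated counts with known changes, the sex comparison recovered 11 of 88 genes changed 2-fold and 74 of 91 changed 4-fold, the endothelial comparison 51 of 99 and 98 of 100, and the folliculostellate comparison 54 of 99 and 100 of 100. Of genes simulated without a change, 3 of 1437, 7 of 2507 and 3 of 10304 were called, in the same order of comparisons. Alternatives were DESeq2 1.42.0, total UMIs in place of TMM, no filter, thinned cells, other rules for the cells, no lane term and each lane left out.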

Additional observations from a re-analysis of the deposited data

Results flagged for a closer look

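For 3 of the 15 genes that passed the test between the sexes, both lanes of each sex lay in the opposite order in another cell type, and the difference between cell types was not tested. *Hsd11b1* was higher in males in the collagen-producing cells (log2 fold change 1.74), whereas folliculostellate cells had 388 and 419 CPM in the female and 282 and 269 CPM in the male lanes. *Tuba1b* was lower in males (-1.52), whereas folliculostellate cells had 1165 and 1206 CPM in the female and 1265 and 1251 CPM in the male lanes. *Cox4i2* was lower in males (-3.46), whereas endothelial cells had 1.85 and 5.07 CPM in the female and 28.3 and 76.6 CPM in the male lanes. The endothelial cells included 7 cells with at least 3 mural genes, 0 and 2 in the female and 3 and 2 in the male lanes. In endothelial cells the 20 mural markers, *Cox4i2* among them, summed to 410 and 433 CPM in the female and 708 and 1542 in the male lanes. The part of these 7 cells in the order of *Cox4i2* was not tested.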

How the results depend on the processing

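No paired analysis was possible because the lanes of the 2 sexes come from different animals and the barcode suffixes carry no replicate number, so no pairing or block across the sexes could be made. The difference in share ranged from 0.118 to 0.240 percentage points over other rules for the cells and from 0.0874 to 0.392 with a lane left out. Against endothelial cells, 1065 genes were lower with no filter, and 154 were higher and 111 lower with thinned cells, where 735 genes were tested. With a lane left out, 398 to 517 were higher and 372 to 460 lower. Against folliculostellate cells, 715 were lower with DESeq2, and 346 were higher and 604 lower with thinned cells (6414 tested). With a lane left out, 632 to 915 were higher and 906 to 1189 lower. Between the sexes, DESeq2 gave 0 genes higher in males and 4 in females, no filter 35 and 27, the study's rule 18 higher in females, no cells of another type's rule 0 and 0, and thinned cells 0 and 2. With a lane left out, 0 to 39 were higher in males and 0 to 27 in females. Fewer genes were tested with thinned cells, and fewer cells were used with a lane left out. With a lane left out, 1951 to 2056 genes were tested between the sexes, against 1611 in the main fit. The cause of the changes in the counts was not tested. A comparison chosen after seeing the data, without deep, mural or doubly marked compared cells, gave 483 and 445 genes against endothelial and 934 and 1302 against folliculostellate cells. Directions against folliculostellate cells reversed for genes of other cell types. With DESeq2, the log2 fold change was -0.33 for *Plvap*, -0.70 for *Fcer1g*, -0.65 for *Cd74*, -0.056 for *Lyz2* and -1.04 for *C1qb*. With a lane left out it ranged from -0.54 to 4.11 for *Tyrobp*, -1.78 to 2.17 for *Cd74*, -1.18 to 3.40 for *Lyz2* and -1.62 to 4.17 for *C1qa*, each lowest without the male lane with 2047 cells. Without the cells that met another type's rule it was -0.73 for *Tyrobp*, -2.0045 for *Cd74*, -1.05 for *Lyz2* and -2.04 for *C1qb*. The data held 1 pool per sex and 52 cells, and the filter left genes of low count out of the main fits. With no filter 12849 genes were tested between the sexes, against 1611 in the main fit.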

Other observations

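*Col1a2*, which most cells that make *Col1a1* also transcribe, had 8 UMIs in all 7861 cells and none in the collagen-producing cells, where *Col1a1* had 1270. The reason was not tested. The cell with 15 cell cycle genes held 12883 UMIs, of which 171 were of the 4 rule genes, 109 of *Tuba1b*, 8 of *Mki67* and 3 of *Top2a*.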
